A study of Homo sapiens with 20 samples.

Results

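The aminoacyl-tRNA synthetase genes encode the enzymes that join each amino acid to its tRNA. A list of 34 of these genes was examined, 19 for cytosolic and 15 for mitochondrial enzymes, out of 19970 protein-coding genes on chromosomes 1 to 22 and X. The genes were taken by name from a list of the enzyme family, which was drawn up with earlier results of these data known. Chromatin immunoprecipitation sequencing (ChIP-seq) with antibodies against the transcription factor c-Myc (MYC) and against RNA polymerase II (POL2) had been performed in PC-3, an established human prostate cancer cell line, either wild-type (WT) or lacking the kinase SLK (SLK-KO, named PSD10 in the labels). Each antibody and genotype had 3 libraries, called biological replicates, and cells were untreated beyond standard culture as far as the labels say. Whether PSD10 is 1 clone is not stated, so loss of SLK and other differences of that line cannot be told apart. Per gene and library, a promoter summit was a called 1-base peak centre within 1 kb of any GENCODE transcription start site (TSS) of the gene.

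Cytosolic synthetases feed the ribosomes of the cytosol, and several of them sit in a multi-synthetase complex held together by the scaffold proteins AIMP1, AIMP2 and EEF1E1. The mitochondrial enzymes are encoded in the nucleus, mostly by separate genes, and feed the ribosomes of the mitochondrion; KARS1 and GARS1 serve both compartments. MYC is a transcription factor known for binding the promoters of genes of ribosome production and protein synthesis, often at the E-box CACGTG, and ATF4 is known to induce many cytosolic synthetase genes under amino acid shortage.

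The MYC lists were short, with 365, 201 and 267 summits in WT and 1218, 1420 and 988 in SLK-KO cells. The POL2 lists held 17126, 5047 and 9925 summits in WT and 19017, 15436 and 16298 in SLK-KO cells, so WT POL2 replicate 2 stood apart as the shortest. The lists carry no read counts, so depth is unknown, and more binding and a deeper or cleaner library cannot be told apart as the source of a longer list. The libraries were made from bulk cells, in which binding in fewer cells and weaker binding in every cell cannot be told apart either. POL2 promoter summits were found at 4 of 4 epithelial marker genes (KRT8, KRT18, KRT19, EPCAM), at 0 of 3 blood, 1 of 2 endothelial and 1 of 2 fibroblast markers. The SLK promoter carried a POL2 summit in 2 WT and 3 SLK-KO libraries, which does not check the knockout, since a promoter can stay in place when the reading frame is disrupted.

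MYC promoter summits were found at 16 of the 34 synthetase genes in at least 1 library, 8 cytosolic (AARS1, EPRS1, FARSA, HARS1, KARS1, LARS1, TARS1, YARS1) and 8 mitochondrial (CARS2, EARS2, FARS2, HARS2, IARS2, LARS2, MARS2, WARS2). This share of 47.1% stood beside 9.69% of all coding genes and 17.7% of the 10765 coding genes with a POL2 promoter summit. In WT cells 4, 0 and 1 of the genes had a MYC promoter summit (1.67 ± 2.08, SD, n = 3), and in SLK-KO cells 8, 9 and 11 (9.33 ± 1.53, n = 3). Every SLK-KO library thus held more of them than every WT library, with a mean difference of 7.67 genes. The same SLK-KO lists also held a larger share of all coding genes, 5.52% ± 0.864 against 1.42% ± 0.396 in WT (n = 3 each). When every MYC list was cut to its 201 best-scored summits, WT libraries held 3, 0 and 1 of the genes and SLK-KO libraries 1, 1 and 2, and the means were equal at 1.33. With lists of equal length the genotype difference was thus 0, at 0 to 3 genes per library, where little difference could show. With whole lists limited to scores of at least 5 it was 3.33 genes.

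**Figure D1:**
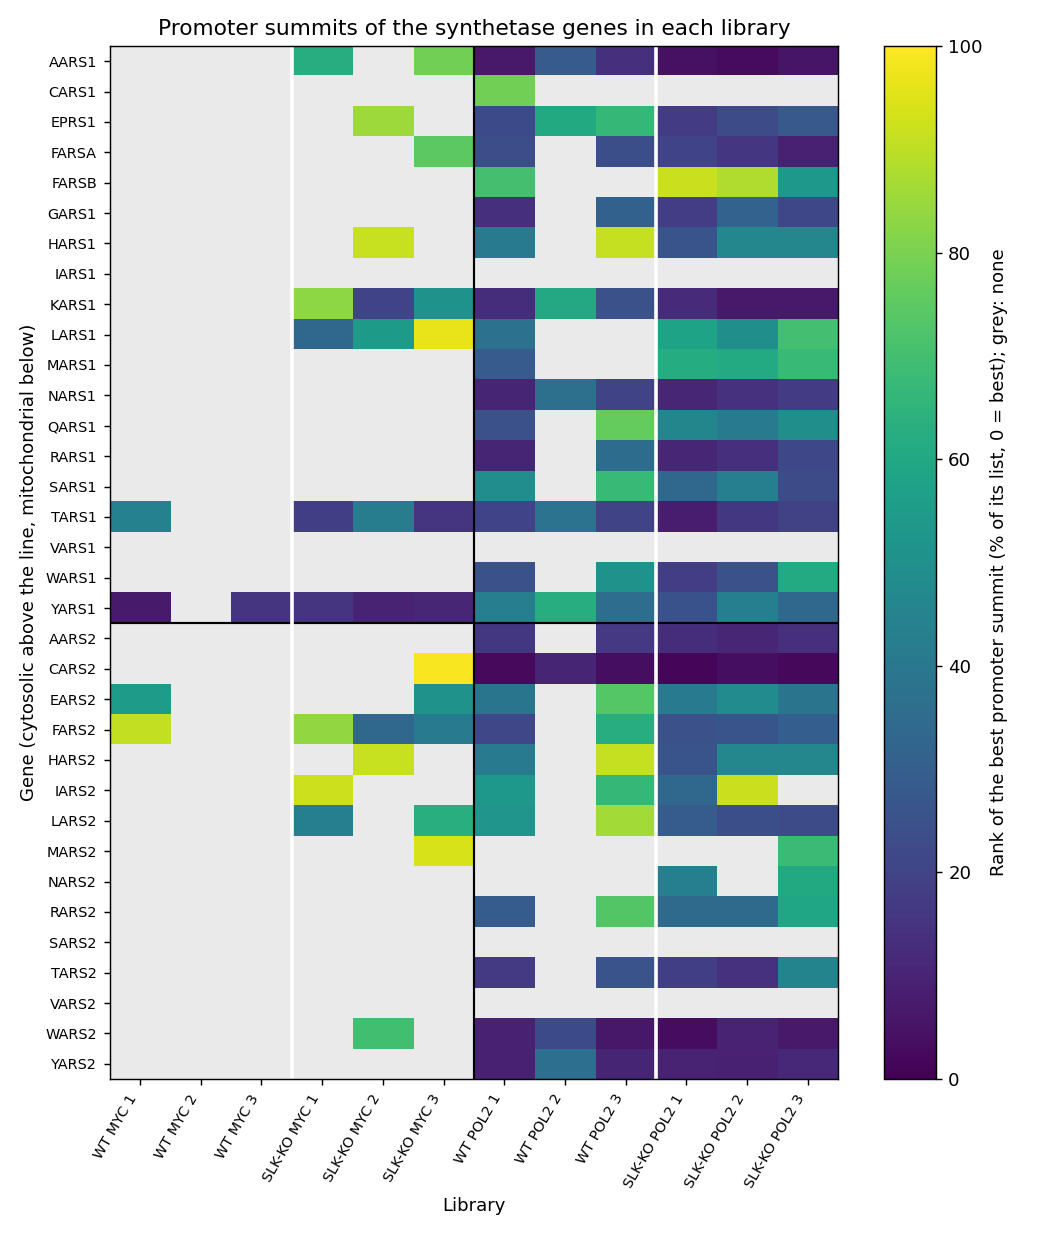
Each row is a synthetase gene and each column a library (replicates 1 to 3). Colour gives the rank of the best promoter summit as a percentage of its list (0 = best) and grey means that no summit lay within 1 kb of a TSS. MYC summits (to the left) fill 4, 0 and 1 genes in WT and 8, 9 and 11 in SLK-KO libraries, and POL2 summits (to the right) fill 9 genes in WT replicate 2 and 24 to 28 in the other libraries.

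Genotype was compared gene by gene as the number of libraries with a MYC promoter summit. Of the 34 genes, 15 had one in more SLK-KO than WT libraries (8.53% of all coding genes and 15.6% of those with POL2 did) and 0 in more WT libraries (0.3% and 0.557%). All 3 SLK-KO libraries shared 5 of them, KARS1, LARS1, TARS1, YARS1 and FARS2 (2.35% of coding genes, 4.32% of those with POL2). No gene of the family had a MYC summit in all 6 libraries (0.496% and 0.91%). KARS1 and LARS1 had a summit in 3 SLK-KO and 0 WT libraries, the strictest separation that 3 against 3 libraries allow (0.876%, with 1.62% among coding genes with POL2). Without WT MYC replicate 1 this class held 4 genes, TARS1 and FARS2 being added, and without SLK-KO MYC replicate 2 it held 4, AARS1 and LARS2 being added. No p is given for these counts; for a single gene, exact permutation of 3 against 3 libraries cannot give less than 0.1.

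YARS1, the cytosolic tyrosyl-tRNA synthetase, had the best-ranked MYC summits of the family. Its summit ranked 27 and 41 in WT replicates 1 and 3, was missing in WT replicate 2, and ranked 184, 139 and 106 in the SLK-KO lists. The summits lay 45 and 15 bp downstream of the canonical TSS in WT cells, and 65 bp downstream, 5 bp upstream and 36 bp downstream in SLK-KO cells. The site was thus at the start itself in all 5 libraries. Ranks from lists of such different lengths can show neither a change between genotypes nor its absence. TARS1, the cytosolic threonyl-tRNA synthetase, had its summits at rank 160 in WT replicate 1 and at 226, 599 and 152 in SLK-KO cells, 2 of them at 18.6% and 15.4% of their lists and 2 near the middle (43.8% and 42.2%). They lay inside the gene, in an intron, 246 to 319 bp downstream of the canonical TSS in all 4 libraries.

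KARS1, the lysyl-tRNA synthetase of both compartments, had summits at ranks 1013, 283 and 502 in the SLK-KO lists. The first lay 42 bp and the others 212 and 202 bp downstream of the TSS. LARS1, the cytosolic leucyl-tRNA synthetase, had ranks 411, 773 and 954, at 33, 103 and 188 bp downstream. Over the family, 22 of 28 SLK-KO summits ranked past 365, the length of the longest WT list. At the 12 genes with no WT summit this held for 17 of 18, the exception being KARS1 in SLK-KO replicate 2. Most places in the SLK-KO lists, of 1218, 1420 and 988 summits, lie past 365 for any gene. The median over all coding genes found was at 48.2%, 47.0% and 47.8% of these lists. The share of coding genes past 365 was not computed, so neither count is a trait of the family.

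The other cytosolic genes had MYC summits in fewer libraries. AARS1 (alanyl) had them in SLK-KO replicates 1 and 3, at ranks 758 and 777, 164 and 223 bp downstream of the start. EPRS1, which joins the glutamyl and prolyl activities in 1 protein, had a summit at rank 1214 in SLK-KO replicate 2, 104 bp upstream. FARSA, the alpha subunit of the cytosolic phenylalanyl enzyme, had one at rank 738 in SLK-KO replicate 3, 139 bp downstream, while FARSB, its partner subunit, had none. These summits sat in the lower parts of their lists.

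Among mitochondrial genes, FARS2 (phenylalanyl) was the only one with summits in all 3 SLK-KO libraries. Its ranks were 331 in WT replicate 1 and 1021, 478 and 407 in SLK-KO cells, at 806 bp and at 1043, 470 and 927 bp upstream of the canonical TSS. All 4 summits lay closer to the start of LYRM4, an iron-sulfur cluster assembly gene transcribed in the opposite direction, than to the canonical FARS2 start, although the one in SLK-KO replicate 2 was 1 bp from an alternative FARS2 start. EARS2 (glutamyl) had summits at rank 201 in WT replicate 1, 41 bp downstream, and at rank 506 in SLK-KO replicate 3, 10 bp downstream. LARS2 (leucyl) had them at ranks 527 and 623 in SLK-KO replicates 1 and 3, 52 bp upstream and 11 bp downstream. Single summits were found at IARS2 (isoleucyl; rank 1123 in SLK-KO replicate 1), WARS2 (tryptophanyl; rank 988 in replicate 2) and MARS2 (methionyl; rank 930 in replicate 3), within 253 bp of their starts. CARS2 (cysteinyl) also had 1, at rank 977 in SLK-KO replicate 3, but 6590 bp upstream of its canonical TSS, at an alternative start 220 bp away.

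**Figure D2:**
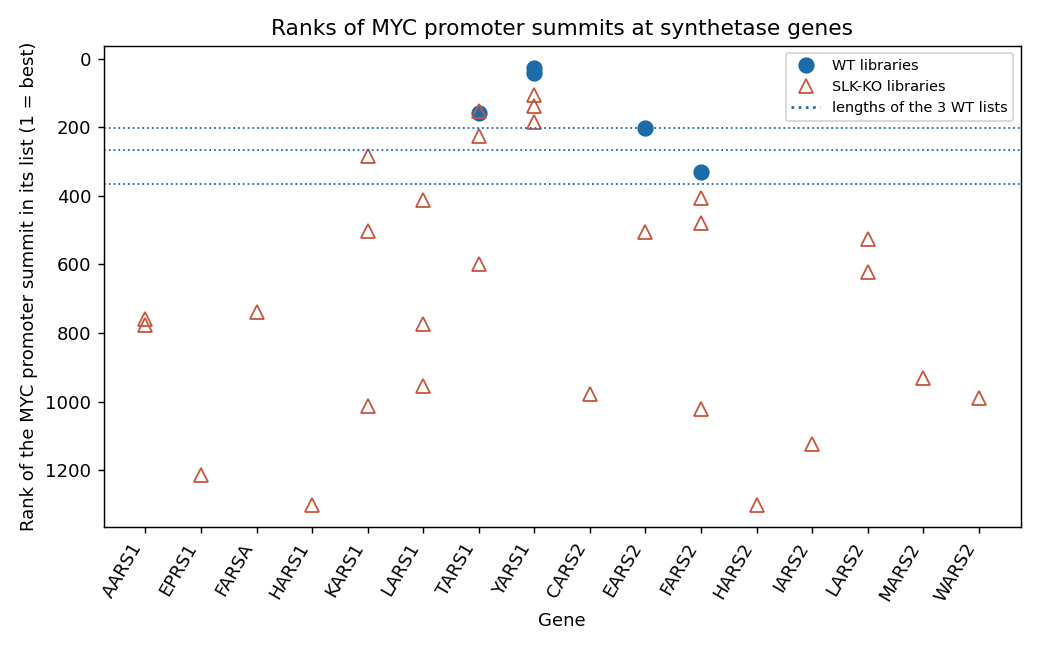
Rank of the MYC promoter summit (vertical axis, 1 = best, at the top) for the 16 synthetase genes with any, in WT (filled circles) and SLK-KO libraries (open triangles). Dotted lines mark the lengths of the WT lists (201, 267 and 365 summits), and 22 of the 28 SLK-KO points lie below the line at 365. Most places in the longer SLK-KO lists lie below that line for any gene.

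The 18 genes with no MYC promoter summit were not near misses. Their nearest MYC summit in any library lay 44036 to 3369466 bp away, while every MYC promoter summit of the family lay within 574 bp of a TSS. In a library where a gene had none, the closest MYC summit was at least 9362 bp away. With MYC lists as short as these, a gene with no call is far from the next one. These distances therefore cannot show whether weaker binding, below the calling limit, was present. The group included GARS1 (glycyl), NARS1 (asparaginyl), SARS1 (seryl) and WARS1 (tryptophanyl), and also IARS1, MARS1, QARS1 and RARS1. VARS1, VARS2 and CARS1 were in it too, and their start sequences are repeated exactly on other sequences of the reference. The part of these copies in the absence of MYC summits was not tested.

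The share of genes with MYC was compared between cytosolic and mitochondrial enzymes. In WT cells 10.5%, 0% and 5.26% of the cytosolic and 13.3%, 0% and 0% of the mitochondrial genes had a MYC promoter summit. In SLK-KO cells the shares were 26.3%, 31.6% and 31.6% (29.8% ± 3.04, n = 3) for cytosolic and 20.0%, 20.0% and 33.3% (24.4% ± 7.70, n = 3) for mitochondrial genes. The cytosolic share was higher in 3 libraries, lower in 2 and equal in 1, with a mean gap of 3.10 ± 5.57 percentage points over 6 libraries. With whole lists the gap was smaller than its spread, and it was 1.40 points without SLK-KO MYC replicate 2. It was larger than its spread with lists of equal length (5.03 ± 3.38 points) and with scores of at least 5 (5.85 ± 5.17). With lists of equal length only YARS1, TARS1 and EARS2 had a MYC promoter summit. The spread is over libraries that read the same genes, so it does not measure the uncertainty of a compartment difference. Counted over any library, the order was reversed, with MYC at 42.1% of the cytosolic and 53.3% of the mitochondrial genes.

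**Figure D3:**
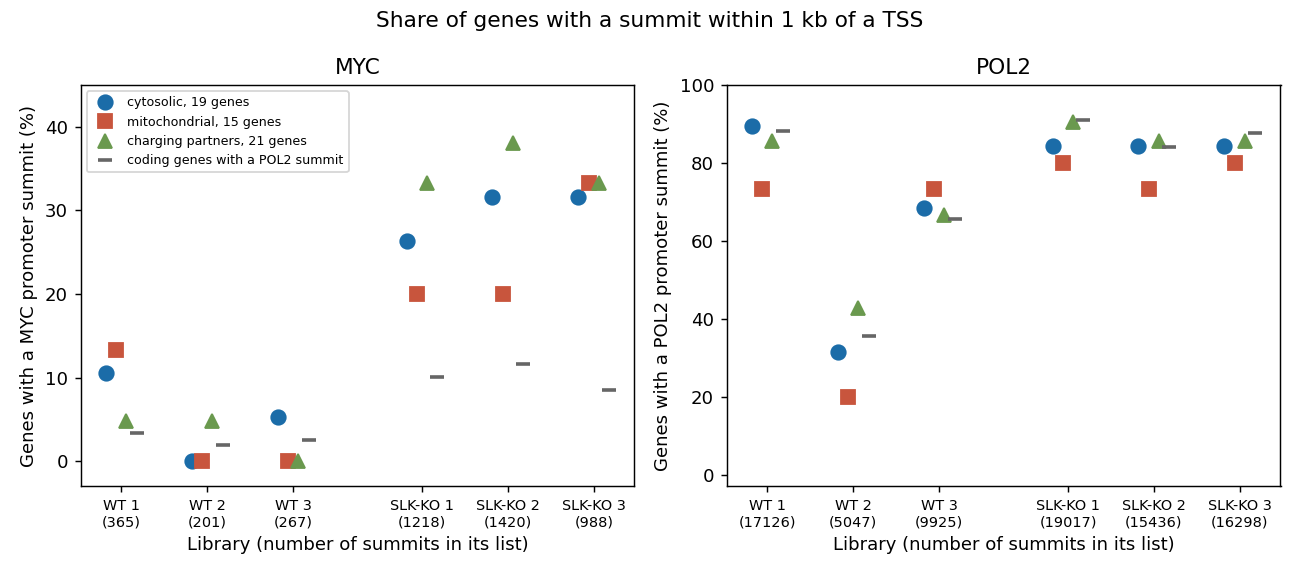
Percent of cytosolic synthetase genes, mitochondrial synthetase genes, tRNA charging partner genes and coding genes with a POL2 promoter summit in any library (dashes) that had a MYC (left) or POL2 (right) promoter summit, per library, with the list length in parentheses. The MYC shares of all 3 groups lie between 20.0% and 38.1% in SLK-KO libraries and at or below 13.3% in WT libraries.

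Sequence at the MYC summits was read from GRCh38. Of the 16 genes, 2 had CACGTG on either strand (the motif is its own reverse complement) within 100 bp of a best-ranked MYC summit, the mitochondrial EARS2 and MARS2 (12.5%), against 31.5% of the 1935 coding genes with a MYC promoter summit. None of the 8 cytosolic genes did. EARS2 had it in both of its MYC libraries, and MARS2 counted through SLK-KO MYC replicate 3 alone, without which 1 gene was left. Both promoters are shown because the motif sits at the start itself, 15 and 11 bases upstream in RefSeq's GRCh38.p14 promoters, on chr16:23557321-23557450 (minus strand) and chr2:197705269-197705398 (plus strand). Capitals mark CACGTG, and each stretch runs from 100 bases before to 30 bases after the start.
EARS2: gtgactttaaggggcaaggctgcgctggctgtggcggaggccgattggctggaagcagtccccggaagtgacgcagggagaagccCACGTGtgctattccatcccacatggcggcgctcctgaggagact
MARS2: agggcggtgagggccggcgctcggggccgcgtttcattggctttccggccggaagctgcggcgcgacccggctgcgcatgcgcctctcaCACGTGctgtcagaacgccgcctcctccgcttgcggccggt

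The variant E-box CACGCG, searched on both strands and apart from CACGTG, was within 100 bp of a best-ranked MYC summit at 7 of the 16 genes (AARS1, HARS1, TARS1, YARS1, FARS2, HARS2, WARS2), or 43.8% against 35.6% of coding genes. That share was near the background. At FARS2 in SLK-KO replicate 2 the first base of the motif was the summit base, and at WARS2, AARS1 and TARS1 the motif began 19, 27 and 36 bp from the summit. The sites are shown with the motif, or its reverse complement, in capitals. They lie at chr6:5261032-5261059 (plus), chr1:119140603-119140630 (minus), chr16:70289304-70289331 (minus) and chr5:33441238-33441265 (plus).
FARS2: agcagccgctcCACGCGgcgggagggcg
WARS2: aatgcggaaagCGCGTGagcgctggagc
AARS1: ggatcaggcccCGCGTGgcctggagaag
TARS1: gcggccgggacCGCGTGggtcggagaag

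Another motif separated the cytosolic from the mitochondrial promoters more than MYC did. TGATGNAA, the core of the amino acid response element that ATF4 and its C/EBP partners bind, was searched on both strands of RefSeq's GRCh38.p14 promoters, from 250 bases before to 50 after the start, for the 29 genes with an entry (no sequence is given for LARS1, VARS1, YARS1, AARS2 and VARS2). It was in 7 of 16 cytosolic promoters (43.8%: AARS1, CARS1, GARS1, IARS1, MARS1, NARS1, TARS1) and 1 of 13 mitochondrial promoters (7.69%: YARS2), against 2.41% of 15315 coding promoters. Within 50 bases of the start it was in 6 cytosolic and 0 mitochondrial promoters, against 0.601% of coding promoters. A match is a description of the letters, and no ATF4 binding was measured here. The 6 sites near the start are shown for their shared position, with the motif or its reverse complement in capitals. The coordinates are chr11:3057407-3057436 (minus), chr7:30594834-30594863 (plus), chr9:92293692-92293721 (minus), chr12:57488053-57488082 (plus), chr18:57621804-57621833 (minus) and chr5:33440956-33440985 (plus).
CARS1: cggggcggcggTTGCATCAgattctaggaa
GARS1: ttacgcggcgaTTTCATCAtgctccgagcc
IARS1: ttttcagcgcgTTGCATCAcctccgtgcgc
MARS1: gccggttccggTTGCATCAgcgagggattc
NARS1: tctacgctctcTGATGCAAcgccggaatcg
TARS1: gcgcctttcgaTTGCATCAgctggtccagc

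Of these 6 genes, TARS1 alone had a MYC promoter summit, and that summit lay over 200 bp downstream of the motif, inside the intron. The motif was absent from the 18 partner promoters with an entry (0 of 18). AARS1 carried it 187 bases upstream of the start, and YARS2, the mitochondrial tyrosyl enzyme, 197 bases upstream.

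POL2 promoter summits were found at 30 of the 34 genes in at least 1 library (53.9% of coding genes had one). Per library the numbers were 28, 9 and 24 in WT (20.3 ± 10.0, n = 3) and 28, 27 and 28 in SLK-KO cells (27.7 ± 0.577, n = 3). The share of all coding genes with one was 47.5%, 19.1% and 35.4% in WT and 49.1%, 45.3% and 47.3% in SLK-KO libraries, with the same library lowest. WT replicate 2 was far below the rest, and WT replicate 1 reached the number of the SLK-KO libraries. The mean difference of 7.33 genes was smaller than the WT spread, and it was 1.67 without WT POL2 replicate 2 and 11.2 without WT POL2 replicate 1. In lists cut to the 5047 best-scored summits, WT libraries held 18, 9 and 13 and SLK-KO libraries 18, 16 and 15 of the genes. The groups overlapped in that setting as well.

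Of the 34 genes, 19 had a POL2 promoter summit in more SLK-KO than WT libraries (30.6% of coding genes, 56.8% of those with a POL2 promoter summit in any library), and for 14 genes WT POL2 replicate 2 was the only library without one. CARS1 alone had more in WT (2.39% and 4.44%), with 1 summit at rank 13480 in WT replicate 1 and none elsewhere. No gene had POL2 in 3 SLK-KO and 0 WT libraries (1.55% and 2.87%) or the reverse (0.01% and 0.0186%). The first count rose to 3 without WT POL2 replicate 1 (FARSB, LARS1 and MARS1) and to 1 without SLK-KO POL2 replicate 2 (NARS2). All 3 SLK-KO libraries held POL2 at 26 genes (42.1% and 78%), and all 6 libraries held it at 9, AARS1, EPRS1, KARS1, NARS1, TARS1, YARS1, CARS2, WARS2 and YARS2 (18.1% and 33.6%). In each pair of percentages the second is for coding genes with POL2 in any library. MYC promoter summits were found at 7 of these 9, the exceptions being NARS1 and YARS2, against 29.1% of the 3615 coding genes with POL2 in all 6 libraries.

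By compartment, POL2 was found at 89.5%, 31.6% and 68.4% of the cytosolic genes in WT and at 84.2% in each SLK-KO library. The mitochondrial shares were 73.3%, 20.0% and 73.3% in WT and 80.0%, 73.3% and 80.0% in SLK-KO libraries. The cytosolic share was higher in 5 of 6 libraries, by 7.02 ± 7.44 percentage points on average, a gap within its spread. The gap was beyond its spread with lists of equal length (8.48 ± 4.16), with scores of at least 5 (7.31 ± 5.30), with the canonical TSS alone (9.24 ± 6.90) and without WT POL2 replicate 3 (9.40 ± 5.15). This spread too is over libraries that read the same genes, and does not measure the uncertainty of a compartment difference. The genotype differences were alike, 21.1 points for cytosolic and 22.2 for mitochondrial genes.

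The rank of a POL2 summit within its list was expressed as a percentage of the list, 0 being the best. The family's medians were 24.2, 37.0 and 35.6 in WT and 22.5, 24.9 and 28.8 in SLK-KO libraries, and the medians over all coding genes found were 28.2, 39.7 and 36.4, and 26.8, 30.4 and 29.8. The synthetase genes were thus slightly nearer the top in each of the 6 libraries. The best median ranks among genes found in all 6 libraries belonged to CARS2 (3.00), AARS1 (6.20) and WARS2 (7.94), and the worst to YARS1 (39.4), EPRS1 (25.3) and TARS1 (20.1). YARS1, which led the family for MYC, was therefore the lowest of these 9 for POL2. The best CARS2 summits, at ranks 287 to 545, lay 394 to 417 bp from the start of ING1, a tumour suppressor gene next to the far upstream alternative start of CARS2, and not at the canonical CARS2 start.

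The genes IARS1, VARS1, SARS2 and VARS2, had no POL2 promoter summit in any library. IARS1 and VARS1 are the cytosolic isoleucyl and valyl enzymes, SARS2 and VARS2 the mitochondrial seryl and valyl enzymes. The nearest POL2 summit in any library lay 110506, 1775410, 101154 and 2470768 bp away, whereas every POL2 promoter summit of the family lay within 432 bp of a TSS. Between the nearest summits to either side, no POL2 summit was called over 554 kb around IARS1, 621 kb around SARS2 and 5128 kb around VARS1 and VARS2, which share a stretch of chromosome 6. For VARS1, VARS2 and CARS1 the 101 bases around the canonical start are repeated exactly on other sequences of the GRCh38 reference (5, 5 and 1 of them). POL2 promoter summits were found at 1.17% of the 768 coding genes with such a copy and at 56% of the 19202 without. The part of these copies in the absences was not tested. For IARS1 and SARS2 no copy was found in the reference used here, and copies on the p14 patches were not looked for.

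The position of POL2 was measured as the distance from the canonical TSS to the nearest promoter summit, counted along transcription, in genes with a summit in all 6 libraries. The genotype ranges did not overlap for 2 of the 9 genes, AARS1 and NARS1, against 11.4% of 3615 coding genes (5.39% with SLK-KO summits further downstream and 5.98% further upstream). AARS1 summits lay 112, 150 and 177 bp downstream of the start in WT and 57, 59 and 62 bp downstream in SLK-KO cells. All 3 SLK-KO summits were closer to the start, by 87.0 bp on average (exact two-sided permutation p = 0.1, the smallest that 20 relabellings can give; Benjamini-Hochberg adjusted p = 0.880 over all 3615 genes). NARS1 summits lay at 21, -156 and 46 bp in WT and at 117, 81 and 63 bp in SLK-KO cells, further downstream by 116.7 bp on average (exact permutation p = 0.1, adjusted p = 0.880). Neither shift passed adjustment, and the 2 genes moved in opposite directions.

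The other 7 genes had overlapping ranges. Some spread over more than 1 start. YARS1 had POL2 at -279, -796 and -252 bp in WT, on the side of its neighbour S100PBP, and at 77, -395 and 18 bp in SLK-KO cells. TARS1 summits fell either 61 to 119 bp downstream or 414 to 506 bp upstream of the start in both genotypes. EPRS1 was the steadiest of the upstream sites, between -329 and -273 bp in all 6 libraries. The median size of the genotype difference was 116.7 bp for the 9 genes and 28.3 bp for all coding genes, and the 3 largest differences were at CARS2, YARS1 and TARS1, whose summits were split between starts.

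**Figure D4:**
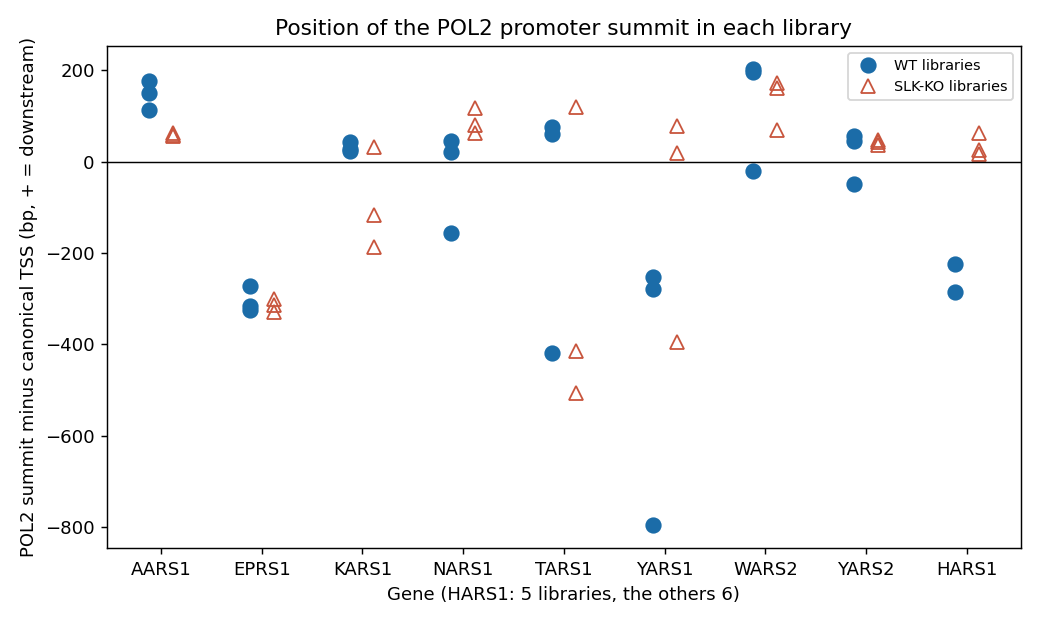
Distance of the POL2 promoter summit from the canonical TSS (bp, positive = downstream) in WT (filled circles) and SLK-KO libraries (open triangles). Shown are 8 of the 9 genes with a POL2 summit in all 6 libraries, CARS2 being left out because its summits reach 7176 bp upstream, and HARS1 in 5 libraries. AARS1, NARS1 and HARS1 are the genes whose groups do not overlap.

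Without WT POL2 replicate 2, the shortest list, 23 genes of the family could be placed in the other 5 libraries. The ranges then did not overlap for 7 of them, AARS1, HARS1, NARS1, RARS1, HARS2, TARS2 and WARS2, against 21.8% of 6567 coding genes. HARS1 and HARS2 entered this count through the same summits. The shifts of RARS1 and TARS2 were small, at 15.2 and 19.7 bp on average. Without SLK-KO POL2 replicate 1 the count over the remaining 5 libraries was 4. The share of all coding genes was not computed for that omission, so this count has no background beside it.

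HARS1 and HARS2, the cytosolic and mitochondrial histidyl-tRNA synthetases, stand head to head and share a promoter, and each POL2 summit there counts for both. In WT replicates 1 and 3 the POL2 summit lay 201 and 140 bp downstream of the HARS2 start. In SLK-KO replicates 1, 2 and 3 it lay 16, 63 and 26 bp downstream of the HARS1 start, on the other side of the promoter. The 2 groups did not overlap, and the positions differed by 290.5 bp on average. WT replicate 2 had no summit there, so 2 WT libraries stand behind this difference and no test of it was made. The shared MYC summit, at rank 1302 in SLK-KO replicate 2, lay 160 bp downstream of the HARS1 start, on the same side as the SLK-KO POL2 summits. The stretch between the starts is shown because these positions turn on it (GRCh38, chr5:140691370-140691465, plus strand). Capitals mark the first transcribed base of each canonical transcript, HARS1 to the left and HARS2 to the right.
HARS1-HARS2: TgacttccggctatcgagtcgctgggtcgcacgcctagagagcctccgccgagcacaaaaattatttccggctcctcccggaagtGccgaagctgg

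Shared promoters were found at 6 of the 16 genes with MYC, against 398 of the 1935 coding genes with MYC. A coding gene on the opposite strand started within 1 kb of 8 members, and 6 of these 8 had a MYC promoter summit. They were HARS1 and HARS2 (85 bp apart), KARS1 with the telomere protein gene TERF2IP (108 bp), YARS1 with S100PBP (295 bp), EARS2 with UBFD1 (377 bp) and FARS2 with LYRM4 (563 bp). HARS1 and HARS2 are each other's neighbour, and the same MYC summit counts for both. RARS2, beside the origin recognition gene ORC3 (148 bp), and SARS2, beside the mitochondrial ribosomal protein gene MRPS12 (181 bp), had none. Of all coding genes, 10.1% had such a neighbour, and 19.8% of those had a MYC promoter summit against 8.56% of the others. At a shared promoter a summit cannot be assigned to 1 of the genes. KARS1 POL2 summits, for example, lay 24, 27 and 43 bp downstream of the KARS1 start in WT, and 31 bp downstream of it in SLK-KO replicate 1. In SLK-KO replicates 2 and 3 they lay 79 and 8 bp from the TERF2IP start, so the genotypes overlapped.

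The distance between MYC and POL2 summits was then measured. A POL2 summit of the same-numbered library was within 250 bp of the MYC summit in 23 of 33 gene and library pairs (69.7%), against 55.7% of those of all coding genes. In SLK-KO cells the counts were 7 of 8, 6 of 9 and 9 of 11, and in WT cells 1 of 4 and 0 of 1, with none to count in replicate 2. With lists of equal length the count was 2 of 8 (25%, against 46.4% of coding genes), and with scores of at least 5 it was 9 of 18 (50.0%, against 53.4%). Without SLK-KO MYC or POL2 replicate 3 it was 14 of 22. The widest separations were at TARS1, where the MYC summit lay 666 bp from POL2 in WT replicate 1 and 752 and 733 bp in SLK-KO replicates 1 and 2, but 138 bp in SLK-KO replicate 3. At YARS1 the distances were 324 and 267 bp in WT and 12, 390 and 18 bp in SLK-KO libraries.

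The 21 partner genes of tRNA charging were read in the same way. MYC promoter summits were found at 1, 1 and 0 of them in WT (0.667 ± 0.577, n = 3) and at 7, 8 and 7 in SLK-KO libraries (7.33 ± 0.577, n = 3). Mean shares were 3.17% and 34.9% of the partners, against 1.42% and 5.52% of all coding genes. In at least 1 library 10 of the 21 had one (47.6%), against 9.69% of coding genes and 17.7% of those with POL2. With lists of equal length the difference of 6.67 genes was 0.333, and with scores of at least 5 it was 5.0. AIMP2, a scaffold of the multi-synthetase complex, led the group, at ranks 68 and 136 in WT replicates 1 and 2 and at 276, 195 and 131 in SLK-KO libraries. EEF1E1, another scaffold, had ranks 430, 244 and 383 in SLK-KO libraries and no WT summit, and AIMP1, the third scaffold, had none. AIMP2 and EEF1E1 had CACGTG within 100 bp of a MYC summit, the only 2 of the 10 partners with MYC (20.0%). That share was below the 31.5% of coding genes with MYC. None of the 8 cytosolic synthetase genes with MYC had it.

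A further 3 partners had MYC in 3 SLK-KO and 0 WT libraries, XPOT (exportin of tRNA from the nucleus), EEF1A1 (the factor that delivers charged tRNA to the ribosome) and DALRD3 (a protein of tRNA methylation). QRSL1 and GATC, subunits of the amidotransferase that makes glutaminyl-tRNA in mitochondria, DTD1 and DTD2, which remove D-amino acids from tRNA, and PTRH2, a peptidyl-tRNA hydrolase, had it in 1 or 2 SLK-KO libraries. POL2 was found at 18, 9 and 14 partners in WT and 19, 18 and 18 in SLK-KO libraries. That difference of 4.67 genes was 2.33 without WT POL2 replicate 2. TUFM, the mitochondrial elongation factor for charged tRNA, had POL2 in 3 SLK-KO and 0 WT libraries (1.55% of coding genes and 2.87% of those with POL2 did). EEF1B2 and EEF1D had none in any library.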

How the data were processed

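Peak summits of 12 ChIP-seq libraries in PC-3 cells were used. IgG and Input libraries (6 and 2) were not analysed here. Per the labels and the submitters' processing notes, 50 bp paired-end reads were processed with nf-core/chipseq 2.1.0 (BWA 0.7.18-r1243, MACS3 3.0.1) against GRCh38.p14. Which control entered peak calling, and with which options, is not given in the sources used here. Each summit's deposited score was taken to be a q-value on the −log10 scale, since no score lay below 1.30169 (a q of 0.05 is 1.30 there). The scores are the authors' and were compared only inside a single list. Of 82 sequence names in the lists, 58 were in the reference.

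TSSs came from GENCODE release 44, and a summit within 1 kb of any TSS of a gene counted for it. Libraries were the replicates; values are mean ± SD over 3 libraries. The lists give no read counts, so depth is unknown and no interval is given. The members and lists were chosen with earlier results of these data known, so counts over them carry no p and stand beside all coding genes. CACGCG and TGATGNAA were searched after the files had been opened. Every member could be named; described in full were those with a MYC promoter summit, those with no POL2 promoter summit, those in 3 libraries of 1 genotype and 0 of the other, those with separated POL2 positions, and the 3 best and 3 worst POL2 ranks. Promoter sequences are RefSeq's (GRCh38.p14; 29 of 34 members matched). A further marker list is not reported here. The offset test was tested on simulated data. Alternatives covered the window, the TSS set, list length, a score minimum of 5, the motif and pairing distances, the block by replicate number and the omission of each library in turn. Tools were samtools 1.23.1, pysam 0.24.0, scipy 1.17.1, pandas 2.3.3, numpy 2.4.6 and Python 3.11.15.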

Additional observations from a re-analysis of the deposited data

How the results depend on the processing

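Of 68 results recomputed under other settings, 55 moved by less than the spread or 1.5 times, 13 moved further and 0 changed direction, and of 78 recomputed without 1 library, 69 and 9 did. Counts and rank percentages cannot change direction, and a difference that falls to 0 is not counted as doing so. The 0 therefore speaks only for the differences between genotypes and between compartments. With lists of equal length, the MYC difference between genotypes was 0 synthetase genes and 0.333 partner genes, 0 synthetase genes had MYC in 3 SLK-KO and 0 WT libraries, 1 had CACGTG at a MYC summit, 2 of 8 MYC summits had POL2 within 250 bp, and the mean POL2 rank percentage was 48.4 (28.8 with whole lists). With scores of at least 5 the same values were 3.33, 5.0, 0, 1, 9 (of 18) and 39.0. With the canonical TSS alone, the MYC difference over partner genes was 5.67. Leaving out 1 library at a time, the MYC difference ran from 6.83 to 8.83 and the POL2 difference from 1.67 to 11.2 synthetase genes, and for partner genes from 6.33 to 6.83 and from 2.33 to 6.83. The cytosolic minus mitochondrial gap ran from 1.40 to 4.28 points for MYC and from 5.19 to 9.40 for POL2. Genes in 3 SLK-KO and 0 WT libraries numbered 2 to 4 for MYC and 0 to 3 for POL2, genes with CACGTG 1 to 2, MYC summits with POL2 14 to 23, genes with separated POL2 positions 2 to 7, and the POL2 rank percentage was 27.2 to 30.1. Same-numbered libraries of the genotypes had correlations over coding genes from -0.019 to 0.053, and other-numbered ones from -0.078 to 0.089. No pairing by number was seen. Correlations from lists this unequal in length cannot exclude it. With a replicate block 3 genes had separated POL2 positions. The block leaves differences of means unchanged by construction (7.67 and 7.33 synthetase genes and 6.67 and 4.67 partner genes for MYC and POL2). Those values are therefore no check, although they are counted among the 55. Depth limits every absence, since a missing summit cannot be told apart from too few reads.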
